A study of Mus musculus with 21 samples.

Results

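The effect of deleting Mboat7 in hepatocytes was compared between a chow diet and a fibrosis-provoking diet in whole mouse liver. All 21 libraries of the series entered this comparison, and they form 4 groups. The wild-type mice (WT) on chow numbered 6, the mice with Mboat7 deleted in hepatocytes (KO) on chow 7, the WT mice given a choline-deficient, low-methionine, high-fat feed (HFMCD) 4 and the KO mice on HFMCD 4. Chow mice were 10 weeks old, and HFMCD was fed for 6 weeks to mice aged 6 to 8 weeks at its start. Age and the series of animal numbers differed between the diets and cannot be told apart from diet, but WT and KO mice of 1 diet share them. The Cre driver of the deletion, the deleted exons and the sex of the mice are not given in the sources used here. Livers were perfused with PBS and taken whole, so the libraries also hold RNA of non-hepatocyte cells. Whether those cells, bile duct cells among them, kept an intact gene is not shown here. Samples are numbered within their group in the order of deposit.

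MBOAT7 is an acyltransferase of intracellular membranes that places arachidonic acid on lysophosphatidylinositol, and thereby sets the fatty acids carried by inositol phospholipids. A liver on a choline-deficient diet cannot export enough triglyceride. It then accumulates fat, loses hepatocytes, activates its stellate cells to make collagen and often expands its bile duct epithelium. The quantity followed here is a difference of differences. For each gene it is the log2 fold change of KO over WT on HFMCD minus the same log2 fold change on chow, and it is called the diet difference below. A positive diet difference marks a gene whose KO level, relative to WT, was higher on HFMCD than on chow.

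Of 55418 gene symbols, 15677 had enough reads to be tested. Each library held between 17502231 and 25822972 counts. Albumin, the main hepatocyte transcript, took 5.39% to 8.96% of them. Levels are given as CPM, counts scaled to the size of the library. KO chow samples 1 and 7 stood apart by genes of other tissues. Dmbt1, a mucosal gene, stood at 95.6 and 54.6 CPM there, against 41.7 and 27.6 CPM in WT chow samples 3 and 5 while no other chow library passed 0.60 CPM. Ttn, a muscle gene, reached 331 CPM in KO chow sample 7. Values without these samples stand beside the results that they moved, a choice made after the data were seen.

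Mboat7 itself (chromosome 7, 3677789 to 3693523, minus strand, GRCm38) checked the labels on both diets. On chow it ran from 33.0 to 39.7 CPM in WT (median 36.1) and from 18.8 to 24.1 CPM in KO (median 21.8). On HFMCD the WT values were 34.7, 35.6, 36.6 and 38.1 CPM and the KO values 20.8, 15.8, 18.8 and 20.2 CPM. Every KO sample lay below every WT sample of its diet. The log2 fold change was -0.76 (SE 0.07) on chow and -0.94 (SE 0.09) on HFMCD. The diet difference was -0.18 (SE 0.12, 95% interval -0.42 to 0.07, edgeR adjusted p = 0.653), so the loss of transcript was not shown to differ between the diets. Exons of Mboat7 share 277 bases with Tsen34 on the other strand, and the strand setting of the counting is not stated.

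No gene passed an adjusted p of 0.05 for the diet difference in edgeR's quasi-likelihood test over all 21 libraries (0% of 15677 genes), and the smallest edgeR adjusted p was 0.0582. At an unadjusted p under 0.05 there were 1628 genes (10.4%), 867 with a positive (5.53%) and 761 with a negative diet difference (4.85%). On the same counts DESeq2 called 99 genes (0.671% of the 14764 to which it gave an adjusted p), and limma-voom with sample weights called 12 (0.0765%), all of them among DESeq2's 99. The edgeR count at 0 therefore rests on the tool. It also rests on 2 libraries, since without KO chow samples 1 and 7 edgeR called 97 genes (0.624%), 74 positive and 23 negative. Without those 2 and WT chow samples 3 and 5 it called 63 (0.407%), 45 positive and 18 negative, and 49 genes were called both ways.

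The precision of a diet difference was lower than that of either KO effect. Its median SE was 0.21 on the log2 scale, against 0.13 for the KO effect on chow and 0.16 on HFMCD. The 95% interval lay within -1 to 1 for 10635 genes (67.8%), so that a change of the KO effect by more than 2-fold lay outside the interval for them and inside it for the rest. Within 1 diet, 361 genes (2.3%) were called for KO against WT on chow and 138 (0.88%) on HFMCD. Of the 1628 genes at an unadjusted p under 0.05, 755 had a KO effect at that threshold on chow only, 522 on HFMCD only, 92 on both with opposite signs, 5 on both with the same sign and 254 on neither. Across the 12947 genes averaging 1 CPM or more, the KO effects of the diets, which share no library, had a Pearson r of 0.213 and the same sign in 57.1% of genes. Genes are not independent replicates, so these are descriptions.

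**Figure D1:**
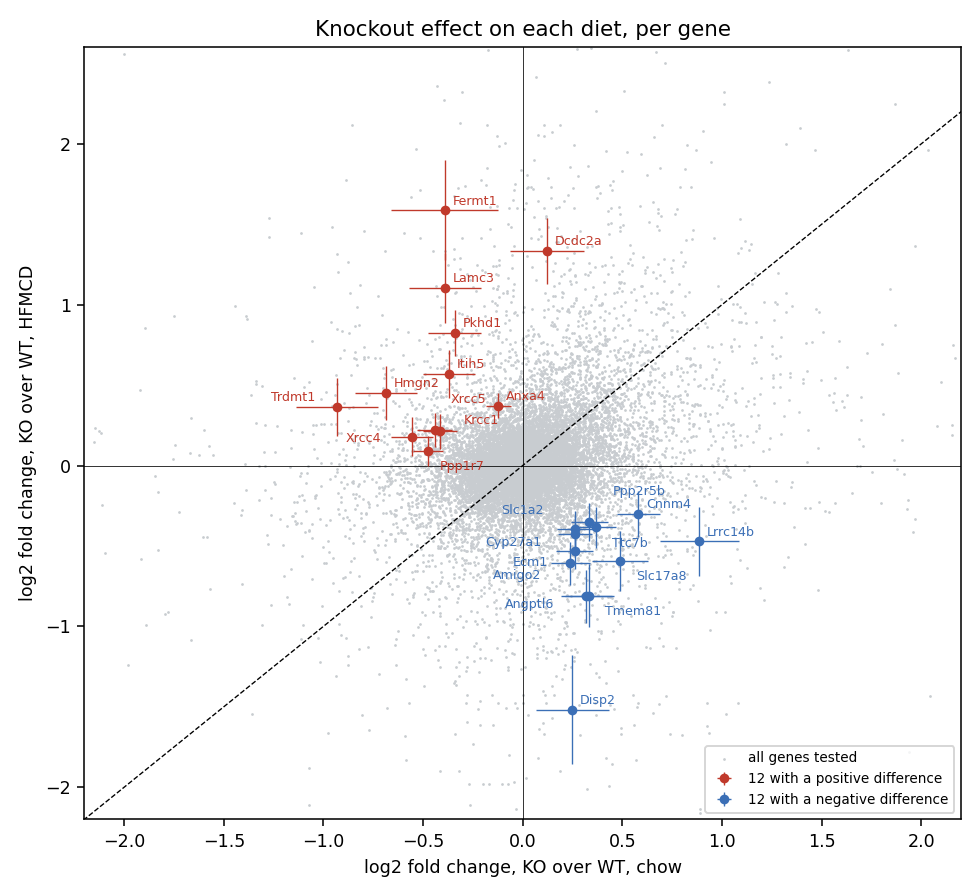
Log2 fold change of KO over WT on chow (x axis) and on HFMCD (y axis) for each of 15677 genes (grey, 86 outside the axes), with SE bars for the 12 genes with the smallest p in each direction. The dashed line marks equal effects on both diets. The 12 positive genes lie above it, at or left of 0.12 on chow, and the 12 negative genes lie below it, all at a positive value on chow.

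The 24 genes with the smallest p, 12 in each direction, are described first. They were picked by the p of the diet difference, so their sizes and overlaps describe them and test nothing further. DESeq2 called all 24 and limma-voom 9 of them. Without KO chow samples 1 and 7 edgeR called 23 of the 24, all but Xrcc4. Without all 4 chow samples named above it called 17, not Anxa4, Ppp2r5b, Slc1a2, Xrcc5, Cnnm4, Itih5 or Ppp1r7, and 16 were called both ways. Under edgeR the KO effect on chow was called for 9 and on HFMCD for 10, with no gene in both sets. In 2 of the positive genes, Pkhd1 and Dcdc2a, the products belong to the primary cilium of epithelial cells, a sensory organelle that cholangiocytes carry and hepatocytes lack. Their upstream sequences are shown because each holds the letters GTTAAT at a like distance from the start.

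The 250 bases before the RefSeq start of each gene (GRCm38.p6) run 5′ to 3′, with the GTTAAT match in capitals. The Pkhd1 stretch is chr1:20618058-20618307 on the minus strand and the Dcdc2a stretch chr13:25055754-25056003 on the plus strand.
Pkhd1: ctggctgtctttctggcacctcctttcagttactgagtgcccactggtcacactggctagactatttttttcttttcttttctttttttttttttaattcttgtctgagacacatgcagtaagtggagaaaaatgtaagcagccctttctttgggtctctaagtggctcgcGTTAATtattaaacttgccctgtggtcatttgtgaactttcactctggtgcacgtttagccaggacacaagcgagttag
Dcdc2a: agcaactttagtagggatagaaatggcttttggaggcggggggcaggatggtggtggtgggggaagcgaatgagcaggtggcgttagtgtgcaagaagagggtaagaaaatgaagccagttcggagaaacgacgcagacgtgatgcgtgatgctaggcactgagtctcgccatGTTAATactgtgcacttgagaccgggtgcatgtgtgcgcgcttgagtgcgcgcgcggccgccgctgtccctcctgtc
The match begins 79 bases before the start of Pkhd1 and 77 bases before that of Dcdc2a. On either strand, GTTAAT or its complement ATTAAC stands in 624 of 11311 tested genes with a promoter in the RefSeq table (5.52%). It stands in 2 of the 11 positive genes that matched the table (Pkhd1 and Dcdc2a), in 1 of the 11 negative genes that matched (Tmem81) and in 2 of 13 bile duct genes (Pkhd1 and Spint1). A match is a string of letters and not a shown binding site.

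Pkhd1 (chromosome 1, 20057779 to 20618064, minus strand, GENCODE M21 on GRCm38) encodes fibrocystin, the ciliary membrane protein mutated in recessive polycystic kidney and liver disease. On chow it ran from 4.44 to 7.40 CPM in WT (median 6.01) and from 3.76 to 5.73 CPM in KO (median 4.47). On HFMCD the WT values were 8.94, 10.1, 8.51 and 9.12 CPM and the KO values 17.7, 17.8, 12.6 and 17.0 CPM. The groups overlapped on chow and did not overlap on HFMCD. The log2 fold change was -0.34 (SE 0.13) on chow, where it was not called, and 0.82 (SE 0.14, edgeR adjusted p = 0.00595) on HFMCD, where Pkhd1 rose. The diet difference was 1.17 (SE 0.20, edgeR adjusted p = 0.0582), and without KO chow samples 1 and 7 it was 1.26 (SE 0.20, edgeR adjusted p = 0.00447).

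Dcdc2a (chromosome 13, 25056004 to 25210706, plus strand) encodes a doublecortin-domain protein of the cilium, mutated in neonatal sclerosing cholangitis. On chow its level was 3.04 to 6.45 CPM in WT mice and 3.32 to 5.61 CPM in KO mice, with medians of 3.37 and 3.92 CPM. On HFMCD WT stood at 5.77, 5.70, 5.61 and 6.12 CPM and KO at 13.3, 20.5, 11.1 and 13.6 CPM. The chow groups overlapped, and the HFMCD groups did not overlap. The KO effect was 0.12 (SE 0.19) on chow and 1.33 (SE 0.20, edgeR adjusted p = 0.00156) on HFMCD, and the diet difference was 1.21 (SE 0.27, edgeR adjusted p = 0.102), or 1.38 (edgeR adjusted p = 0.0209) without KO chow samples 1 and 7.

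Lamc3 (chromosome 2, 31887291 to 31946539, plus strand) encodes a gamma chain of laminin, the adhesive protein of basement membranes. On chow it ran from 6.20 to 7.88 CPM in WT mice and from 4.64 to 7.20 CPM in KO mice. On HFMCD WT stood at 4.24, 4.10, 5.89 and 5.15 CPM and KO at 12.3, 16.1, 7.17 and 6.23 CPM. All 4 KO values on HFMCD lay above the WT values, though 2 of them lay within the range of WT on chow. The diet difference was 1.50 (SE 0.28, edgeR adjusted p = 0.0809), or 1.57 (edgeR adjusted p = 0.0108) without KO chow samples 1 and 7.

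Fermt1 (diet difference 1.98, SE 0.41, or 2.37 with an edgeR adjusted p = 0.00185 without the same samples) encodes kindlin-1, which activates integrins in epithelial cells. It rose on HFMCD from 1.44, 1.09, 1.33 and 1.09 CPM in WT to 3.30, 5.15, 3.22 and 3.25 CPM in KO (edgeR adjusted p = 0.012). On chow the WT range of 1.17 to 2.70 CPM lay inside the KO range of 0.762 to 3.37 CPM. Anxa4, an annexin of epithelial membranes, rose on HFMCD from 92.6 to 103.91 CPM in WT to 115 to 147 CPM in KO (edgeR adjusted p = 0.0181), with a diet difference of 0.50 (SE 0.10). Itih5, whose product binds hyaluronan in the matrix, had a diet difference of 0.94 (SE 0.20) and was called on neither diet.

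The other 6 positive genes fell on chow, and none of them was called on HFMCD. Xrcc5 encodes a subunit of the Ku heterodimer that holds broken DNA ends. It ran from 19.4 to 24.3 CPM in WT mice and from 13.7 to 20.7 CPM in KO mice on chow, and it fell there (log2 fold change -0.44, SE 0.09, edgeR adjusted p = 0.0136). On HFMCD its KO values of 28.5, 29.8, 30.6 and 32.9 CPM all lay above the WT values of 25.7, 25.3, 28.2 and 25.1 CPM (log2 fold change 0.22, SE 0.11, not called). Xrcc4, which joins Ku in the same end-joining repair, fell on chow from a WT median of 7.27 to a KO median of 4.88 CPM without overlap, and on HFMCD its groups overlapped at 7.05 to 8.82 and 8.10 to 9.59 CPM. Its diet difference was 0.74 (SE 0.16, edgeR adjusted p = 0.0856).

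Ppp1r7, a regulatory subunit of protein phosphatase 1, fell on chow from 26.3 to 30.6 CPM in WT to 17.0 to 24.9 CPM in KO (edgeR adjusted p = 0.00332). On HFMCD it was level, at 28.2 to 30.4 and 30.1 to 32.2 CPM, with a log2 fold change of 0.09 (SE 0.09). Its diet difference was thus carried by chow. The tRNA methyltransferase gene Trdmt1 and the nucleosome-binding gene Hmgn2 also fell on chow (log2 fold changes -0.93 and -0.69) and had diet differences of 1.29 (SE 0.27) and 1.14 (SE 0.23). Hmgn2 has near-identical processed copies, so its count is uncertain. Krcc1 fell on chow by 0.41 on the log2 scale and had a diet difference of 0.62 (SE 0.14).

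**Figure D2:**
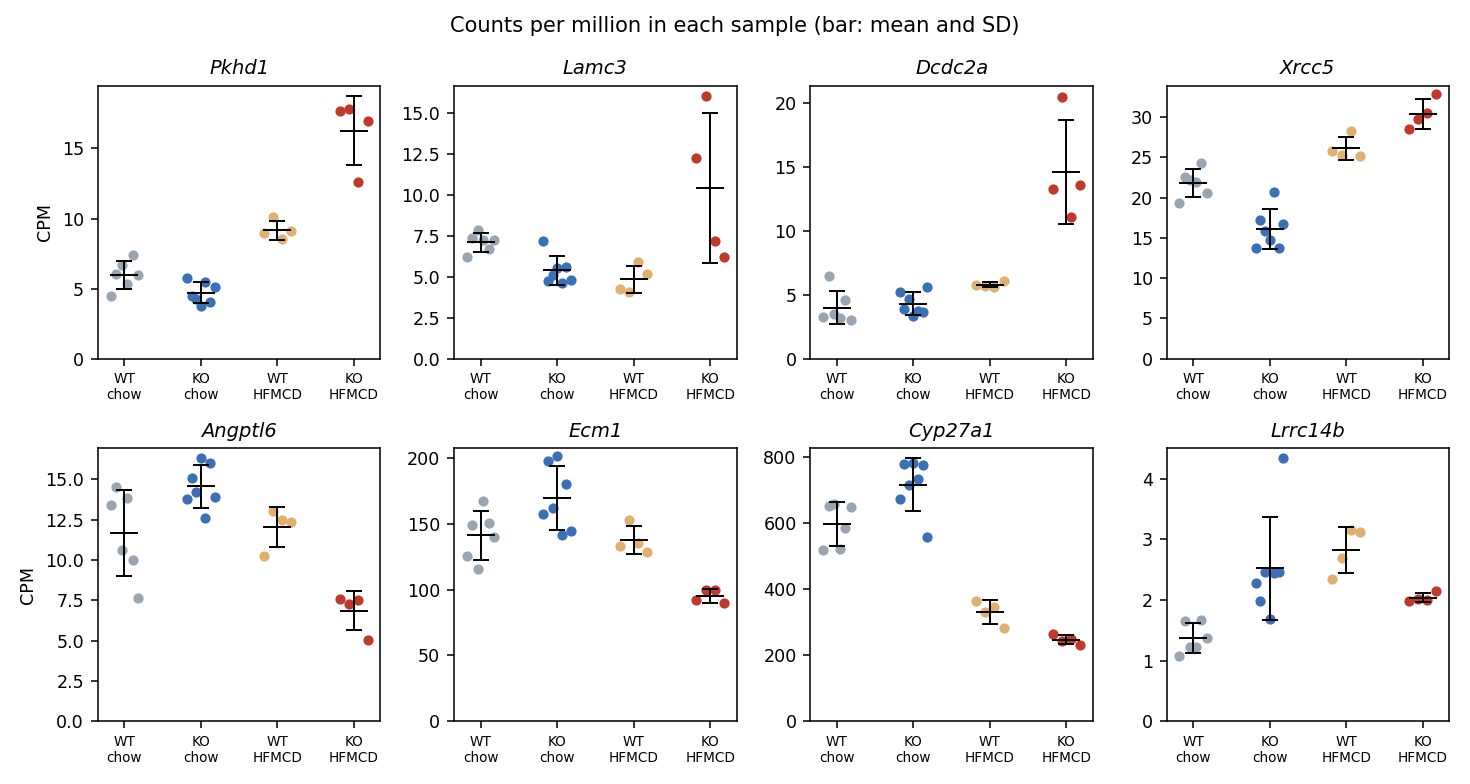
CPM in every sample for 4 genes with a positive (top) and 4 with a negative diet difference (bottom), with group mean and SD, on axes from 0. KO lies above WT without overlap on HFMCD in all 4 top panels and below WT in all 4 bottom panels; on chow only Lrrc14b separates the genotypes.

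Among the 12 negative genes, Angptl6 and Ecm1 are on the list of hepatic stellate cell genes described below. Stellate cells are the vitamin A-storing pericytes that turn into collagen-producing myofibroblasts. Which cells of the whole liver gave the RNA of either gene was not tested. Angptl6 (chromosome 9, 20873808 to 20879727, minus strand), a secreted angiopoietin-like factor, ran from 7.66 to 14.5 CPM in WT mice and from 12.6 to 16.3 CPM in KO mice on chow. On HFMCD it stood at 10.3, 13.1, 12.5 and 12.4 CPM in WT and at 7.55, 7.24, 7.53 and 5.06 CPM in KO. It fell on HFMCD without overlap (log2 fold change -0.81, SE 0.16, edgeR adjusted p = 0.0135) against 0.32 (SE 0.13) on chow, and the diet difference was -1.13 (SE 0.21, edgeR adjusted p = 0.0809). It was -1.16 (edgeR adjusted p = 0.0137) without KO chow samples 1 and 7.

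Ecm1 (chromosome 3, 95734147 to 95739569, minus strand) encodes extracellular matrix protein 1, which holds latent TGF-beta in its inactive form. Its chow levels were 116 to 167 CPM in WT mice and 142 to 202 CPM in KO mice. On HFMCD WT stood at 134, 153, 136 and 129 CPM and KO at 91.8, 99.9, 100.01 and 89.8 CPM. The KO values on HFMCD were the lowest of the 4 groups, with no overlap with any of them. The log2 fold change was 0.26 (SE 0.09) on chow and -0.53 (SE 0.12, edgeR adjusted p = 0.0254) on HFMCD, and the diet difference was -0.79 (SE 0.15), or -0.85 (edgeR adjusted p = 0.00834) without KO chow samples 1 and 7.

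Cyp27a1 (chromosome 1, 74713574 to 74737892, plus strand), the sterol hydroxylase of the alternative bile acid pathway, ran from 520 to 659 CPM in WT mice and from 557 to 783 CPM in KO mice on chow. On HFMCD WT stood at 365, 331, 347 and 281 CPM and KO at 263, 243, 249 and 231 CPM. KO was higher than WT by the median on chow and below it without overlap on HFMCD, and neither effect was called alone (log2 fold changes 0.26 and -0.43). The diet difference was -0.69 (SE 0.14), or -0.77 (edgeR adjusted p = 0.00574) without KO chow samples 1 and 7. Slc1a2, a glutamate transporter of hepatocytes around the central vein, had the same shape at 277 to 394 and 331 to 462 CPM on chow and at 128 to 164 and 109 to 121 CPM on HFMCD (diet difference -0.66, SE 0.14).

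Lrrc14b (chromosome 13, 74359578 to 74364005, minus strand) was the only gene of the 24 whose groups did not overlap on either diet. Every KO sample lay above every WT sample on chow, at 1.69 to 4.33 against 1.07 to 1.67 CPM, and below on HFMCD, at 1.99, 2.02, 1.99 and 2.15 against 2.35, 2.70, 3.15 and 3.12 CPM. The margin on chow was 1.69 against 1.67 CPM, and the highest value was that of KO chow sample 7. Its diet difference was -1.36 (SE 0.29), and -1.16 without KO chow samples 1 and 7. Its exons share 2755 bases with Ccdc127 on the other strand, whose own diet difference was -0.12 (SE 0.11).

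The other 7 negative genes had KO effects of opposite sign on the diets. Cnnm4, a magnesium transporter, rose on chow from 5.98 to 7.51 CPM in WT to 8.04 to 11.6 CPM in KO without overlap (edgeR adjusted p = 0.0118), and on HFMCD its log2 fold change was -0.30 (SE 0.14). Ttc7b, a scaffold of the kinase complex that makes phosphatidylinositol 4-phosphate at the plasma membrane, rose on chow by 0.37 (SE 0.10, edgeR adjusted p = 0.0471) and was at -0.38 (SE 0.13) on HFMCD. The adhesion gene Amigo2 fell on HFMCD to 5.81 to 7.02 CPM from 8.39 to 12.9 CPM in WT (edgeR adjusted p = 0.0269). Disp2, of the family that releases Hedgehog ligands, fell on HFMCD to 0.556, 0.368, 0.362 and 0.566 CPM from 1.44, 1.13, 1.33 and 1.42 CPM, and Tmem81 fell there by 0.81 on the log2 scale (edgeR adjusted p = 0.0437). The vesicular glutamate transporter gene Slc17a8 and the phosphatase subunit gene Ppp2r5b had diet differences of -1.08 (SE 0.23) and -0.68 (SE 0.15).

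Of these 24 genes, 18 were separated without overlap on HFMCD, Pkhd1, Lamc3, Anxa4, Hmgn2, Xrcc5, Itih5, Fermt1 and Dcdc2a upward and Angptl6, Ecm1, Amigo2, Tmem81, Cyp27a1, Ttc7b, Lrrc14b, Disp2, Slc1a2 and Ppp2r5b downward. Over all tested genes KO lay wholly above WT on HFMCD in 4.96% and wholly below in 3.66%, and on chow, with more samples, in 0.236% and 0.421%. Exons of 11 of the 24 overlap a gene on the other strand, for which reads cannot be told apart without a stated strand setting.

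Bile duct epithelium genes had the highest median diet difference of the gene lists. Of 18 tested, 17 had a positive diet difference, with a median of 1.17 against 0.00 over all genes. At an unadjusted p under 0.05 there were 11 positive and 0 negative genes (61.1% of the list, against 5.53% and 4.85% of all genes), and edgeR called none. DESeq2 called Pkhd1 and Mmp7 (adjusted p = 9.18e-05 and 0.0237), and limma-voom with sample weights called Pkhd1 (adjusted p = 0.0345). The median KO effect was 0.22 on chow and 1.39 on HFMCD, and all 18 were positive on HFMCD. In bulk tissue more duct cells and more RNA per duct cell cannot be told apart.

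The summed level of the duct list showed the same on each sample. It was 129.98 to 157 CPM in WT mice and 123 to 216 CPM in KO mice on chow, 224 to 237 CPM in WT on HFMCD and 328.1, 401, 299 and 306 CPM in KO on HFMCD. The KO samples on HFMCD stood above all others. The highest KO chow values, 216 and 197 CPM, were those of samples 1 and 7, which also held 147 and 206 CPM of smooth muscle genes against 10.1 to 24.5 CPM in the other KO chow samples. WT chow samples 3 and 5 held 95.3 and 33.9 CPM of smooth muscle genes, against 12.5 to 26.8 CPM in the other WT chow samples. The part of other tissue in the duct result was not tested. Without KO chow samples 1 and 7 alone, 16 of 18 duct genes were positive at an unadjusted p under 0.05 (7.2% of all genes in that direction, 4.99% in the other). The median was 1.64, and edgeR called Epcam, Krt19, Pkhd1, Mmp7, Cdh6, Bicc1 and Ehf. Leaving out the 2 highest KO chow values by itself raises the diet difference of the list. Without all 4 chow samples the count was again 16 (backgrounds 7.27% and 5.36%), with a median of 1.45. In that fit edgeR called 6 duct genes, those just named except Mmp7 (edgeR adjusted p = 0.143). Cdh6 and Bicc1 lay close to the threshold (edgeR adjusted p = 0.0472 and 0.0474).

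**Figure D3:**
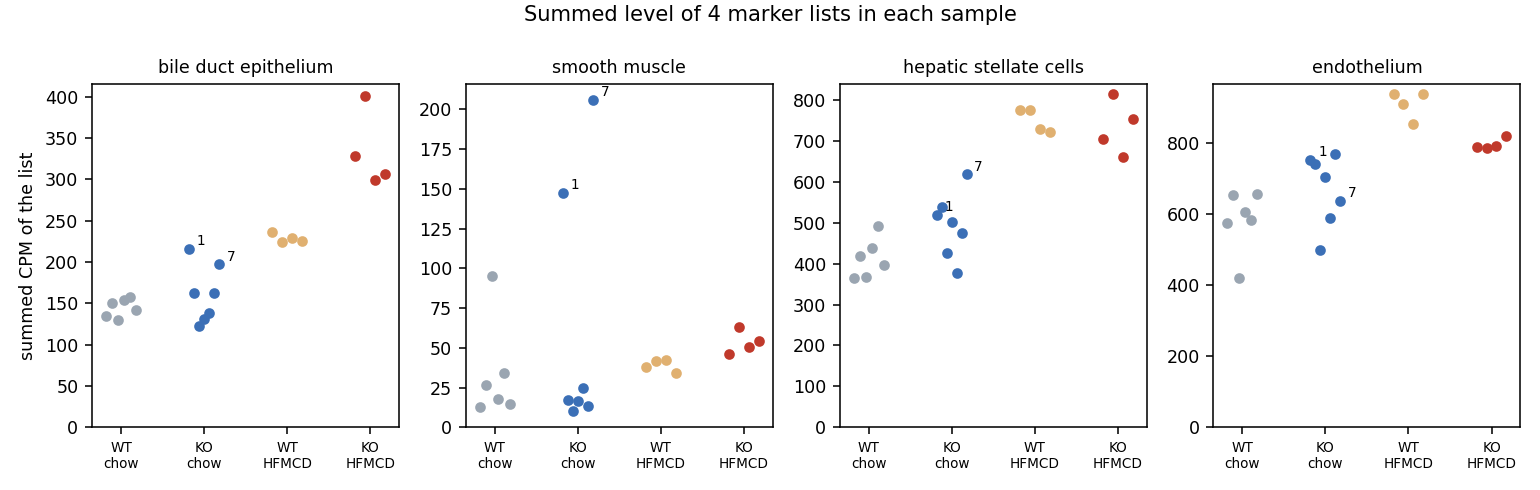
Summed CPM of the bile duct, smooth muscle, hepatic stellate and endothelial lists in each sample, on axes from 0, with KO chow samples 1 and 7 numbered. Duct genes are highest in the 4 KO samples on HFMCD (299 to 401 CPM); smooth muscle genes are highest in KO chow samples 1 and 7 (147 and 206 CPM).

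Epcam, the surface adhesion molecule of cholangiocytes and their progenitors, ran from 2.11 to 3.75 CPM in WT mice and from 1.25 to 8.51 CPM in KO mice on chow, the highest being sample 1. On HFMCD WT stood at 5.19, 4.61, 6.05 and 4.78 CPM and KO at 17.4, 24.8, 15.1 and 14.7 CPM, without overlap. Its diet difference of 1.52 (SE 0.46, edgeR adjusted p = 0.228) became 2.166 (SE 0.28, edgeR adjusted p = 0.00055) without KO chow samples 1 and 7.

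Sox9, the transcription factor of ductal and progenitor cells, had a diet difference that those samples hardly moved, 0.97 (SE 0.26) with them and 0.96 (SE 0.28) without. On HFMCD its WT values were 11.8, 6.92, 9.16 and 8.31 CPM and its KO values 18.8, 18.97, 17.6 and 13.9 CPM, and on chow WT and KO covered 4.91 to 9.53 and 4.72 to 8.97 CPM. Cdh6, a cadherin of embryonic ducts, rose on HFMCD from 1.19, 1.02, 1.65 and 0.892 CPM to 4.29, 6.36, 3.69 and 4.15 CPM (diet difference 1.54, SE 0.43). The keratin gene Krt19, outside the rule for named genes and chosen after its values were seen, moved with the choice of samples from 0.89 (SE 0.77) to 2.22 (SE 0.40), and Aqp1, a water channel also made by endothelium, was the one member with a negative value (-0.16, SE 0.18).

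**Figure D4:**
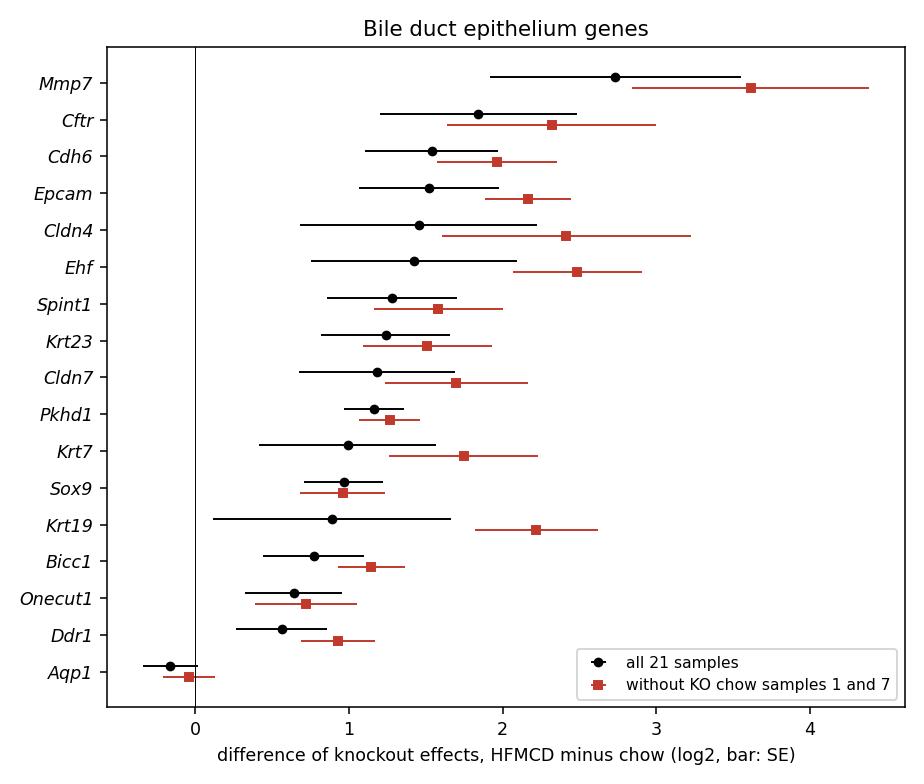
Diet difference (KO effect on HFMCD minus KO effect on chow, log2, with SE) of 17 of the 18 bile duct genes tested, with all 21 samples (black) and without KO chow samples 1 and 7 (red). All genes drawn but Aqp1 lie right of 0 in both fits, and Krt19 shifts from 0.89 to 2.22.

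Genes outside the lists stood beside these once KO chow samples 1 and 7 were left out. They were chosen after their values were seen. The tetraspanin gene Tspan8 (3.08, SE 0.31), the stem and duct cell surface gene Prom1 (2.64, SE 0.38), the scavenger receptor gene Scara3 (2.19, SE 0.28) and the membrane-cytoskeleton linker gene Ezr (1.04, SE 0.17) were among the 49 genes called both without these 2 and without all 4 chow samples. With all 21 samples their diet differences were 1.84, 1.74, 1.71 and 0.72, and edgeR called none. Both reduced fits leave out KO chow samples 1 and 7, and these values were higher in both. Calls in both are therefore not independent of each other and add no support for a duct pattern. Scara3 was called there by DESeq2 (adjusted p = 0.00721) and by limma-voom with sample weights (adjusted p = 0.0421).

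Basement membrane genes, which encode the sheet on which epithelia and vessels sit, had 5 positive and 1 negative of 22 at an unadjusted p under 0.05 (27.3% of the list, against 10.4% of all genes), with a median of 0.23. Lamb3, a beta chain of epithelial laminin, came to a positive diet difference of 0.98 (SE 0.34) by a fall on chow (log2 fold change -1.09, edgeR adjusted p = 0.014) and a level HFMCD value (-0.11, SE 0.27). Lama1 had a negative diet difference (-0.69, SE 0.25), with 4.01, 2.90, 2.57 and 4.08 CPM in KO against 5.07, 5.74, 5.49 and 6.00 CPM in WT on HFMCD. The positive count was 10 of 22 without KO chow samples 1 and 7, where 7.2% of all genes were positive at that threshold.

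The fibrillar matrix list holds fibrillar collagens and their crosslinking enzymes, beside other collagens, other matrix proteins, matrix proteases and an inhibitor of proteases. Its genes showed 0 of 28 at an unadjusted p under 0.05 in either direction (10.4% of all genes), with a median diet difference of 0.03. Their median KO effect was 0.41 on chow and 0.44 on HFMCD. This result rests on KO chow samples 1 and 7. Col1a1, the main fibril chain, reached 25.9 and 20.8 CPM in them and 2.94 to 9.62 CPM in the rest of the chow libraries. Without both samples 13 of 28 were positive and 0 negative (7.2% and 4.99% of all genes), with a median of 0.58. Without all 4 chow samples 5 were positive (7.27% of all genes), with a median of 0.36. The diet difference of Col1a1 was -0.45 (SE 0.72) with all samples, 0.80 (SE 0.35) without the 2 and 0.35 (SE 0.23) without the 4. Col1a1 and Col5a2 were chosen after their values were seen. Col5a2, a minor fibril chain, was called in both reduced fits (1.10, SE 0.16, edgeR adjusted p = 0.00185 without the 2, 1.04 without the 4) and stood at 0.36 (SE 0.42) with all samples.

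Hepatic stellate cell genes had 6 of 20 negative and 0 positive at an unadjusted p under 0.05 (4.85% and 5.53% of all genes), with a median of -0.08. The absence of positive genes rests on the samples with other tissue, since there were 3 positive and 6 negative without KO chow samples 1 and 7 (median 0.01) and 1 positive and 5 negative without all 4 chow samples (median 0.02). Des and Acta2, contractile genes that smooth muscle shares, went from -1.75 (SE 1.17) and 0.09 (SE 1.21) to 0.43 (SE 0.22) and 2.11 (SE 0.89) without KO chow samples 1 and 7, and were chosen after their values were seen. Beside Angptl6 and Ecm1, the stellate genes Colec10, Vipr1, Lhx2 and Hand2 were on the negative side. Of the 20 diet differences 8 were positive, among them Ngfr (0.64, SE 0.36), Hgf (0.63, SE 0.30) and Pdgfra (0.24, SE 0.25). Lrat was level at -0.03 (SE 0.26), so the list did not move as a whole. Colec10, a collectin of the complement system, ran from 17.1 to 34.8 CPM in WT mice and from 21.6 to 32.9 CPM in KO mice on chow. On HFMCD it stood at 47.7, 55.2, 47.2 and 58.0 CPM in WT and at 27.4, 24.8, 31.4 and 38.0 CPM in KO. The log2 fold change of HFMCD over chow was 1.03 in WT and 0.12 in KO. Its diet difference was -0.91 (SE 0.21, edgeR adjusted p = 0.127). DESeq2 called it (adjusted p = 0.0158), and limma-voom with sample weights did not (adjusted p = 0.0525). The summed level of the list was 722 to 777 CPM in WT mice and 660 to 816 CPM in KO mice on HFMCD, with overlap.

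Sinusoidal and vascular endothelium genes had 0 positive and 9 negative of 19 at an unadjusted p under 0.05 (5.53% and 4.85% of all genes). The median was -0.35, and 18 of 19 diet differences were negative. The KO effect was positive in 18 of 19 on chow (median 0.16) and in 4 of 19 on HFMCD (median -0.17). Tek, the angiopoietin receptor, stood at 20.8, 18.3, 18.7 and 18.8 CPM in WT and at 16.7, 15.4, 14.6 and 16.4 CPM in KO on HFMCD, while its chow ranges were 8.78 to 13.8 and 11.6 to 19.6 CPM. Stab2, the hyaluronan-clearing receptor of the sinusoid, had a diet difference of -0.51 (SE 0.16) and Plvap, a protein of endothelial fenestrae, of -0.35 (SE 0.12). The summed list was 852 to 939 CPM in WT mice and 786 to 821 CPM in KO mice on HFMCD without overlap. The negative count was 5 without KO chow sample 1 or KO HFMCD sample 3, 6 without KO chow samples 1 and 7 and 4 without all 4 chow samples.

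Genes of hepatocytes around the central vein, the zone of glutamine synthesis and of much drug and bile acid metabolism, had 0 positive and 7 negative of 17 (5.53% and 4.85% of all genes), with a median of -0.33. Their median KO effect was 0.06 on chow and -0.32 on HFMCD, where 15 of 17 were negative. Glul, glutamine synthetase, stood at 1340, 1572, 1569 and 1553 CPM in WT and at 1205, 1205, 1049 and 968 CPM in KO on HFMCD, without overlap. Its chow ranges were 1515 to 2371 and 1731 to 2080 CPM, and its diet difference was -0.51 (SE 0.15, edgeR adjusted p = 0.227). Cyp1a2 had a diet difference of -0.87 (SE 0.34). Genes of hepatocytes around the portal vein had 1 positive and 1 negative of 16 (12.5%, against 10.4% of all genes) and a median of -0.05.

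**Figure D5:**
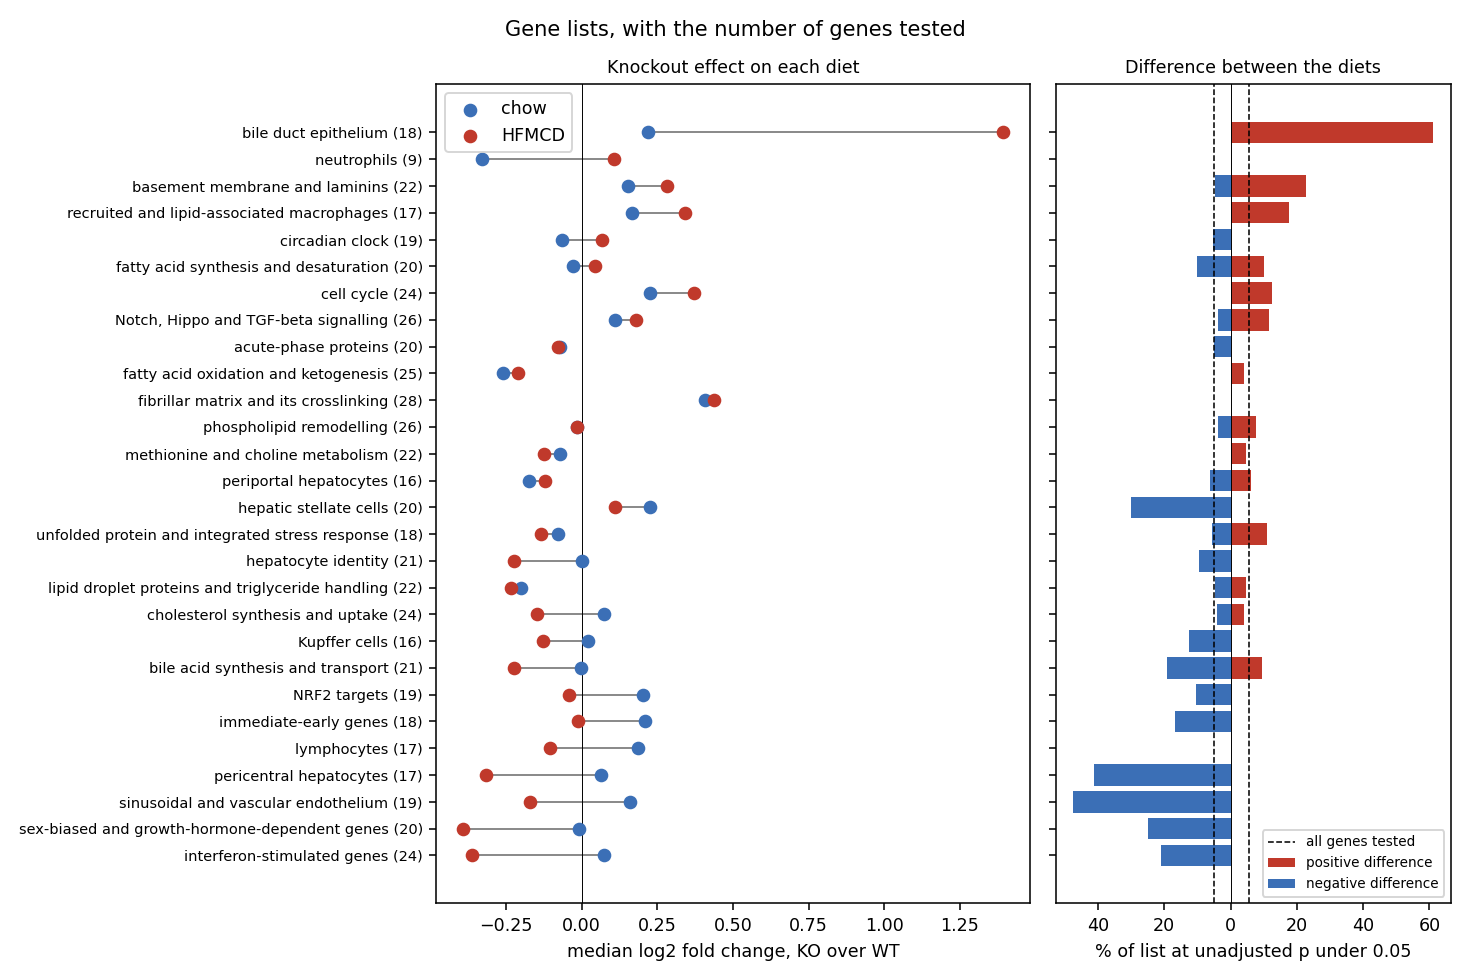
Left, median log2 fold change of KO over WT on chow (blue) and HFMCD (red) for each gene list, with the number of genes tested. Right, percent of the list at an unadjusted p under 0.05 for a positive (red) or negative (blue) diet difference, with the share of all genes tested as dashed lines. The duct list reaches 61.1% positive, and the endothelial list 47.4% negative.

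Bile acid genes, Cyp27a1 among them, had 2 positive and 4 negative of 21 (28.6%, against 10.4% of all genes). Slc27a5, which activates bile acids for conjugation, stood at 613, 628, 648 and 598 CPM in WT and at 468, 462, 499 and 414 CPM in KO on HFMCD, where it fell (edgeR adjusted p = 0.0358), and its chow ranges of 800 to 1075 and 894 to 1196 CPM overlapped (diet difference -0.43, SE 0.13). Slc51b, a subunit of the basolateral bile acid exporter, was at 1.59 (SE 0.45) with a KO effect of -1.07 (SE 0.35) on chow and 0.52 (SE 0.29) on HFMCD. The negative count was 2 without WT HFMCD sample 4 or KO HFMCD sample 2, and 7 without all 4 chow samples.

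Fatty acid oxidation genes had 1 positive and 0 negative of 25 (4%, against 10.4% of all genes) and a median of 0.04. On leaving out 1 sample these ran over 0 to 1, 0 to 2 and -0.04 to 0.08. Their median KO effect was close on both diets, at -0.26 on chow and -0.21 on HFMCD. Phospholipid remodelling genes had 2 positive and 1 negative of 26 (11.5%, near the 10.4% of all genes) and a median of 0.02. The list holds Mboat7 beside other acyltransferases, phospholipases and enzymes of phospholipid synthesis. Its positive members were Pnpla7 (0.46, SE 0.19) and Lclat1 (0.36, SE 0.15), a lysophospholipid acyltransferase that fell on chow (log2 fold change -0.38, edgeR adjusted p = 0.0379) and was level on HFMCD (-0.02, SE 0.12).

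Fatty acid synthesis genes had 2 positive and 2 negative of 20 (20%, against 10.4% of all genes). Scd1, the desaturase that makes oleate, ran from 1227 to 2360 CPM in WT mice and from 1773 to 4228 CPM in KO mice on chow. On HFMCD it stood at 142, 122, 176 and 196 CPM in WT and at 667, 295, 1419.9 and 1765 CPM in KO. Its WT level was lower on HFMCD than on chow by a log2 fold change of -3.42, and its KO level by -1.44. The diet difference was 1.99 (SE 0.49, edgeR adjusted p = 0.157), with a 95% interval of 0.97 to 3.01. DESeq2 called it (adjusted p = 0.00883), and limma-voom with sample weights did not (adjusted p = 0.0626). Apoa4, an apolipoprotein induced by fat load, had a diet difference of 2.32 (SE 0.61) that came from chow, where it fell from 850 to 6034 CPM in WT to 429 to 1240 CPM in KO (edgeR adjusted p = 0.0136). On HFMCD its ranges of 1292 to 2459 and 1727 to 2760 CPM overlapped. DESeq2 called the diet difference of Apoa4 (adjusted p = 0.0233). It was not called by edgeR (adjusted p = 0.190) or by limma-voom with sample weights (adjusted p = 0.114).

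Interferon-stimulated genes had 0 positive and 5 negative of 24 (20.8%, against 10.4% of all genes in either direction). They had a median of -0.42 and 22 negative diet differences, and all 24 had a negative KO effect on HFMCD. The count of 5 is unsteady. Leaving out 1 sample, it was 1 without WT HFMCD sample 2 or KO HFMCD sample 2 and 2 without WT chow sample 3 or KO chow sample 6. It was 3 without WT chow sample 6, KO chow sample 1 or 7, WT HFMCD sample 1 or KO HFMCD sample 1 or 4. It was 8 without WT chow sample 1 or KO chow sample 4 or 5, 9 without WT chow sample 4 and 12 without KO HFMCD sample 3. It was 2 without KO chow samples 1 and 7 (median -0.30) and 1 without all 4 chow samples (median -0.26). Oas2, which makes the second messenger of RNase L, stood at 3.26, 2.28, 4.16 and 3.96 CPM in KO and 6.43, 6.56, 3.95 and 5.76 CPM in WT on HFMCD, with overlap (diet difference -1.03, SE 0.35). Kupffer cell genes had 0 positive and 2 negative of 16 (12.5%, near the 10.4% of all genes), Cd163 (-0.90, SE 0.30) and Clec4f (-0.56, SE 0.26). That count was 3 without WT chow sample 4 or WT HFMCD sample 1. It was 1 without WT chow sample 3, 5 or 6, KO chow sample 1, 2 or 6, WT HFMCD sample 3 or 4 or KO HFMCD sample 1 or 2. Without all 4 chow samples 1 Kupffer gene was positive and 1 negative, with a median of 0.06. Immediate-early genes had 0 positive and 3 negative of 18 (16.7%, against 10.4% of all genes), among them Jun (-1.11, SE 0.36), which rose on chow (edgeR adjusted p = 0.0374) and was at -0.18 (SE 0.28) on HFMCD. NRF2 targets had 0 positive and 2 negative of 19, Ugdh and Gclc, and 4 negative without WT chow sample 2 or 3 or WT HFMCD sample 1, or without all 4 chow samples.

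Genes of recruited and lipid-associated macrophages had 3 positive and 0 negative of 17 (5.53% and 4.85% of all genes). Spp1, osteopontin, which duct cells also make, stood at 182, 181, 211 and 172 CPM in WT and at 481, 716, 557 and 505 CPM in KO on HFMCD, where it rose (edgeR adjusted p = 0.0125). On chow it ran from 19.3 to 51.7 CPM in WT mice and from 24.0 to 74.0 CPM in KO mice. The diet difference was 1.43 (SE 0.37, edgeR adjusted p = 0.177), or 1.75 (edgeR adjusted p = 0.0139) without KO chow samples 1 and 7. With all samples DESeq2 called it (adjusted p = 0.0158), and limma-voom with sample weights did not (adjusted p = 0.0606). Without all 4 chow samples the positive count was 7 of 17 (7.27% of all genes).

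Growth-hormone-dependent and sex-biased genes, whose liver levels follow the pituitary pulse, had 0 positive and 5 negative of 20 (5.53% and 4.85% of all genes) and a median of -0.38. Sult2a8, a bile acid sulfotransferase, ran from 160 to 426 CPM in WT mice and from 233 to 419 CPM in KO mice on chow. On HFMCD it stood at 156, 217, 186 and 151 CPM in WT and at 68.6, 36.7, 83.1 and 80.7 CPM in KO, where it fell (edgeR adjusted p = 0.0133). The diet difference was -1.50 (SE 0.33, edgeR adjusted p = 0.112), and it was called by DESeq2 (adjusted p = 0.00228) and by limma-voom with sample weights (adjusted p = 0.0421). In edgeR it was called without all 4 chow samples (adjusted p = 0.0340) and not without KO chow samples 1 and 7 (adjusted p = 0.0511). Genes of this family have close copies, so reads may be shared. The count of 5 was 1 without KO HFMCD sample 2, 2 without KO HFMCD sample 1 or WT HFMCD sample 3, and 3 without WT chow sample 1, KO chow sample 7 or WT HFMCD sample 2 or 4.

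Signalling genes of the Notch, Hippo and TGF-beta pathways, which shape ducts and scar, had 3 positive and 1 negative of 26 (15.4%, against 10.4% of all genes). Ankrd1, a target of the Hippo effector YAP, rose on HFMCD from 1.24, 1.13, 1.73 and 1.05 CPM to 4.13, 4.63, 3.51 and 3.40 CPM (edgeR adjusted p = 0.00519) and had a diet difference of 1.49 (SE 0.45), or 2.21 (edgeR adjusted p = 0.00574) without KO chow samples 1 and 7. Hey1, a Notch target, was at -1.04 (SE 0.35) and the Notch ligand gene Jag1 at 0.46 (SE 0.21). Without KO chow samples 1 and 7 the positive count was 7 of 26 (7.2% of all genes).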

How the data were processed

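RNA of whole liver from 21 mice was sequenced, 1 library per mouse. The authors deposited raw read counts per gene symbol, and the submitters' processing notes name the build GRCm38 and the tools featureCounts 1.6.1, STAR 2.6.1d and CASAVA 2.17. The annotation release and strand setting are not given in the sources used here. All 55418 symbols matched GENCODE M21. From these counts, edgeR 4.0.16 in R 4.3.3 (TMM scaling, filterByExpr, robust quasi-likelihood fit, 4 groups, 2-sided, Benjamini-Hochberg over 15677 genes, called at adjusted p under 0.05) gave the KO effect on each diet and the difference of both. limma 3.58.1 and DESeq2 1.42.0 (no adjusted p for 913 genes), other scalings and filters, and leaving out each sample were alternatives. CPM use TMM-scaled library sizes. Totals of 17502231 to 25822972 counts limit low genes most. The scripts were tested on simulated data.

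Named genes were Mboat7, the 12 with the smallest p in each direction at a group mean of at least 2 CPM (clone and model names left out), up to 6 with opposite KO effects, and up to 4 members of each list by smallest p. The groups, lists and members were chosen with earlier results of these data known. Further genes outside that rule (Krt19, Aqp1, Col1a1, Col5a2, Des, Acta2, Ccdc127, Tspan8, Prom1, Scara3 and Ezr) were named after their values were seen. Sample numbers follow the order of deposit and pair nothing. Each p-value sets a difference against the spread between mice within groups, estimated over the 4 groups with information shared between genes. Some members of the lists are counted but not reported here by name.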

Additional observations from a re-analysis of the deposited data

Results flagged for a closer look

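Of 500 sets of values (125 genes in 4 groups), 29 held a sample far from the others of its group. At the 95% critical value used, chance alone flags about 1 in 20 groups. Among the 24 genes these were Pkhd1 at 12.6 CPM in KO HFMCD sample 3, Lamc3 at 7.20 CPM in KO chow sample 1, Anxa4 at 40.7 CPM in KO chow sample 6, Fermt1 at 5.15 CPM in KO HFMCD sample 2, Angptl6 at 5.06 CPM in KO HFMCD sample 4 and Lrrc14b at 4.33 CPM in KO chow sample 7. The other KO HFMCD samples held 17.0 to 17.8 CPM of Pkhd1, so its low sample still lay above every WT sample.

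In WT mice on chow, Col5a3 stood at 52.5 CPM in sample 2, and Elovl3 at 3.81, Slc27a5 at 800.2 and Oas2 at 11.9 CPM in sample 1. Mgll stood at 797 CPM in sample 4, Ahcy at 1267 CPM in sample 6, Ugdh at 238 and Acta2 at 21.8 CPM in sample 3 and Mcm6 at 3.39 CPM in sample 5. In KO mice on chow, Epcam stood at 8.51 CPM in sample 1, Gclc at 602 CPM in sample 6 and Des at 109 CPM in sample 7.

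In WT mice on HFMCD, sample 1 had Glul at 1340 and Fcgr2b at 90.8 CPM. Sample 2 had Col1a1 at 118 CPM, sample 3 Acta2 at 7.34 CPM, and sample 4 had Acadl at 258, Decr1 at 199 and Jun at 74.5 CPM. In KO mice on HFMCD, sample 2 had Pck1 at 1319 and Slc51b at 7.43 CPM, and sample 3 had Nr1h4 at 116 and Sult3a1 at 0.362 CPM.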

How the results depend on the processing

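No gene was called for the diet difference in edgeR over all samples (0), and the same held with RLE scaling, the older dispersion method, no robust dispersions, at least 1 CPM in 4 samples and limma-voom with 1 spread per group. DESeq2 called 99 genes, limma-voom with sample weights 12, upper-quartile scaling 1 and no low-count filter 5. Leaving out 1 sample gave 0 to 6 genes, with 6 without KO chow sample 1, 5 without KO chow sample 5 and 4 without KO chow sample 7. Without both KO chow samples 1 and 7 there were 97, and without those and WT chow samples 3 and 5 there were 63, alternatives chosen after seeing the data. The cause of these shifts was not tested. The count at an unadjusted p under 0.05 was 1628 and stayed within 1394 to 1847 on leaving out 1 sample. Of 4000 values of 125 genes under the alternatives, 15 changed sign. Those of Col1a1 (-0.45 in the full fit) were 0.019 with limma-voom and sample weights, 0.040 without KO chow sample 1 (range -0.72 to 0.040 on leaving out 1 sample), 0.80 without KO chow samples 1 and 7 and 0.35 without all 4 chow samples. Aqp1 (-0.16) was at 0.0036 without all 4. Des (-1.75 in the full fit) ran from -1.94 to 0.030 on leaving out 1 sample, the highest being without KO chow sample 7, and was at 0.43 without KO chow samples 1 and 7 and 0.22 without all 4. Acta2 (0.09) ran from -0.80 to 0.85 on leaving out 1 sample and was negative without WT chow sample 3, any of KO chow samples 2 to 6 or KO HFMCD sample 2. None of the 768 values of the 24 genes changed sign. The median diet difference of all genes was 0.00 with TMM, -0.01 with RLE and 0.01 with upper-quartile scaling, and the split at an unadjusted p under 0.05 was 867 positive to 761 negative, 813 to 813 and 927 to 697. No paired analysis was possible because the labels give animal numbers that are not shared between groups.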

Other observations

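Some gene groups were not described above. Cell cycle genes had 3 positive and 0 negative of 24 at an unadjusted p under 0.05 (12.5%, near the 10.4% of all genes) and a median diet difference of 0.12. All 24 had a positive KO effect on HFMCD, with a median of 0.37, and 20 had one on chow, with a median of 0.23. Mcm6, a subunit of the replicative helicase, rose on HFMCD (log2 fold change 0.65, edgeR adjusted p = 0.0195). The count was 1 without KO chow samples 1 and 7, and also without WT chow sample 4, KO HFMCD sample 3 or KO HFMCD sample 4, and 5 without KO HFMCD sample 2. The median ran from -0.04 (without WT HFMCD sample 3) to 0.32 (without WT HFMCD sample 1), so it kept no direction.

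Genes of the unfolded protein and integrated stress response had 2 positive and 1 negative of 18 (1 to 2 of each on leaving out 1 sample), 16.7% of the list against 10.4% of all genes. Asns, asparagine synthetase, rose on HFMCD (log2 fold change 1.24, edgeR adjusted p = 0.0273). Cholesterol synthesis genes had 1 positive and 1 negative of 24 (8.33%, against 10.4% of all genes), or 0 to 2 and 1 to 4 on leaving out 1 sample. Their median was -0.17, and 17 of 24 diet differences were negative. Lymphocyte genes had 0 of 17 in either direction, and neutrophil genes 0 of 9, against 10.4% of all genes.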
